A study of Mus musculus with 3 samples.

Results

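Lymphoid-primed progenitors of the bone marrow were defined as cells with at least 1 UMI (unique molecular identifier, 1 counted transcript) of Flt3 and at least 1 of Dntt, no more than 2 UMIs of Cd79a, Vpreb1 and Igll1 together, no more than 1 of Siglech and 0 of Gata1 and Klf1. The limits leave out committed B-lineage, plasmacytoid dendritic and erythroid cells. The members were thus chosen by measured counts of these 8 genes. A barcode was kept as a cell from 1000 UMIs and 400 genes upwards where mitochondrial UMIs did not exceed 10%, and 702 of 22376 kept cells met the gate. The cells come from 3 libraries of mouse marrow. In the labels 2 of them carry the genotype Ep300-Znf384-V5-HA, by its name a tagged fusion of Ep300 and Znf384, and the third is wild type. All are from males aged 6 weeks. After red cell lysis, 5000 live unselected marrow cells and 5000 live lineage-negative cells were sorted and put into each library, so a share of cells is a share of this mixture and not of native marrow. The labels do not say which cells carry the fusion, whether the libraries come from separate animals, or on which strain. With 1 wild-type library, genotype and library cannot be told apart.

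Flt3 encodes the receptor for FLT3 ligand and marks multipotent progenitors that are losing stem cell potential. Dntt encodes terminal deoxynucleotidyl transferase, which adds bases at antigen receptor joints and is switched on when such cells first lean towards lymphoid fates. Next on that path come Il7r, the receptor for interleukin 7, the Rag genes, which cut antigen receptor loci, and Ebf1, which commits cells to the B lineage. EP300 is a histone acetyltransferase, and ZNF384 is a zinc finger protein whose fusions are found in acute leukaemias with mixed B-lymphoid and myeloid features.

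The libraries held 93262028 to 111836603 UMIs, and 7213 to 7625 cells were kept in each, with median depths of 7606 to 10518 UMIs. Between 13 and 17 kept barcodes were shared by any pair of libraries, and 0 gated cells shared a barcode. The gated cells had median depths of 11421 and 14319 UMIs in fusion replicates 1 and 2 and of 11585 in wild type. Of them, 0, 7 and 19 were predicted doublets. In 1, 5 and 22 gated cells, more than 1% of UMIs came from lists of neutrophil granule, mast cell and basophil, MHC class II and erythroid genes, and 0, 5 and 16 of these were predicted doublets.

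The cells carried the markers of their name. Satb1, a chromatin organizer of early lymphoid cells, was detected in 92.3%, 98.6% and 97.2% of gated cells of fusion replicates 1 and 2 and wild type. Cd34, a surface protein of stem and progenitor cells, was detected in 96.9%, 96.5% and 91.4%. Ranked by the smallest fold over all other kept cells in any library, the leading genes after Dntt and Flt3 were Il12a, Gpr171, Cox6a2, Adgrl4, Dusp2 and Gimap6. Cd27, Notch1, Mef2c, Hoxa9 and Sox4 were also among the 20 leading genes. These are a description, since the cells were selected on counts. Myeloid transcripts were present too: after each cell was thinned to 2000 UMIs, Mpo, the myeloperoxidase of granulocyte precursors, was detected in 55.8%, 54.5% and 52.6% of gated cells. It was detected in 4.30% to 7.29% of erythroid cells and 11.5% to 26.9% of neutrophils thinned the same way.

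Gated cells made up a smaller share of both fusion libraries than of the wild-type library. They were 130 of 7538 kept cells in fusion replicate 1 (1.72%, exact 95% interval 1.44% to 2.04%) and 143 of 7213 in fusion replicate 2 (1.98%, 1.67% to 2.33%). In wild type they were 429 of 7625 (5.63%, 5.12% to 6.17%). The fusion mean was 1.85% ± 0.182 (SD, n = 2), or 0.329 times the wild-type share, and the counting intervals of the fusion libraries lay wholly below that of wild type. A two-sided exact permutation test gave p = 0.333, the smallest that 3 labellings allow. The intervals cover counting error only.

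**Figure D1:**
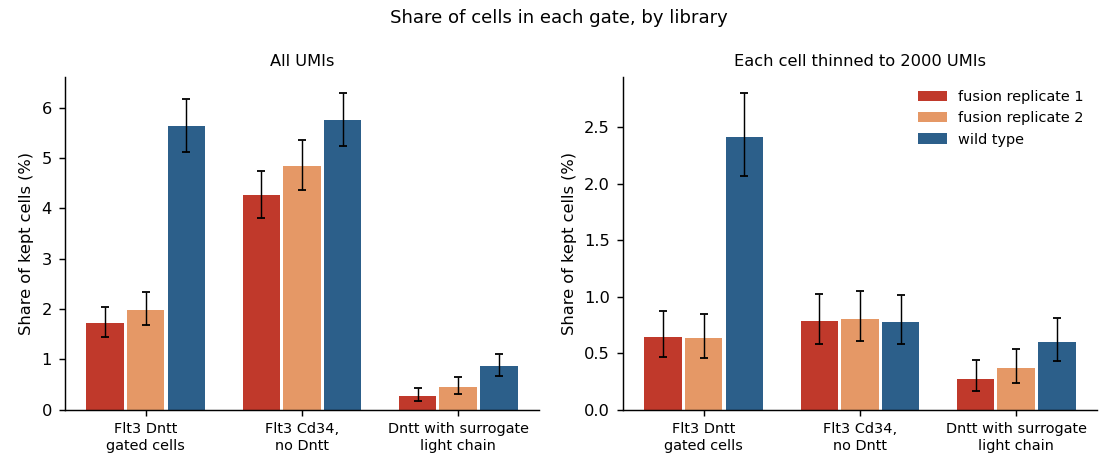
Share of kept cells in 3 gates, in percent, for the 2 fusion libraries and wild type, with all UMIs (left) and with each cell thinned to 2000 UMIs (right); bars are libraries and error bars exact 95% intervals. With all UMIs the Flt3 Dntt cells stand at 1.72% and 1.98% against 5.63%, and Flt3 Cd34 cells without Dntt at 4.26% and 4.84% against 5.74%. Thinned, they stand at 0.644% and 0.631% against 2.41%, and at 0.782% and 0.807% against 0.776%.

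The difference was as large at equal depth and smaller against narrower denominators. With each cell thinned to 2000 UMIs, which leaves 6518, 6815 and 6957 cells, gated cells were 0.644% and 0.631% of the fusion libraries and 2.41% of wild type. The fusion libraries held 1869 and 1877 erythroid cells (at least 2 Klf1 UMIs) and wild type 866. Against cells with 0 UMIs of Gata1 and Klf1 the shares were 2.63%, 3.16% and 6.97%. Among Flt3 cells with Cd34 and 0 UMIs of Gata1 and Klf1 they were 27.0%, 27.0% and 45.6%. Wild type was highest on each denominator.

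Stray Dntt was also more frequent in the wild-type library. One or more Dntt UMIs were found in 0.910%, 1.12% and 3.70% of erythroid cells of fusion replicates 1 and 2 and wild type, at median depths of 28547 to 30010 UMIs. In neutrophils, at median depths of 3698 to 5205 UMIs, they were found in 0.876%, 0.764% and 2.92%. Flt3 and Dntt were found together in 0.214%, 0.320% and 0.577% of erythroid cells and in 0.101%, 0.306% and 0.789% of neutrophils. The gate sets no limit on neutrophil genes, so such neutrophils can themselves be gated cells. Every gated cell holds both genes by the definition of the gate, so these shares cannot be set against gated cells. The part of free RNA in the gated share was not tested.

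The share was also taken at higher limits on Dntt, which the gate itself uses. With at least 2 Dntt UMIs the shares were 1.33%, 1.54% and 4.98%, and with at least 8 they were 0.637%, 0.735% and 3.51%, a ratio of 0.195. Since the gate asks for Dntt, its level inside the gate is a description. The median was 4 UMIs per gated cell in both fusion libraries and 12 in wild type. At the edge of the gate, 30, 32 and 49 cells held exactly 1 Dntt UMI. At least 8 UMIs were held by 36.9% and 37.1% of the fusion cells and 62.5% of the wild-type cells, so fewer fusion cells sat at the high end of Dntt. The median for Flt3 was 3 UMIs in all 3 libraries. At the other limit, 0, 0 and 4 gated cells held 2 light chain and Cd79a UMIs together, and 0, 2 and 6 Flt3 Dntt cells held 3 to 5.

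**Figure D2:**
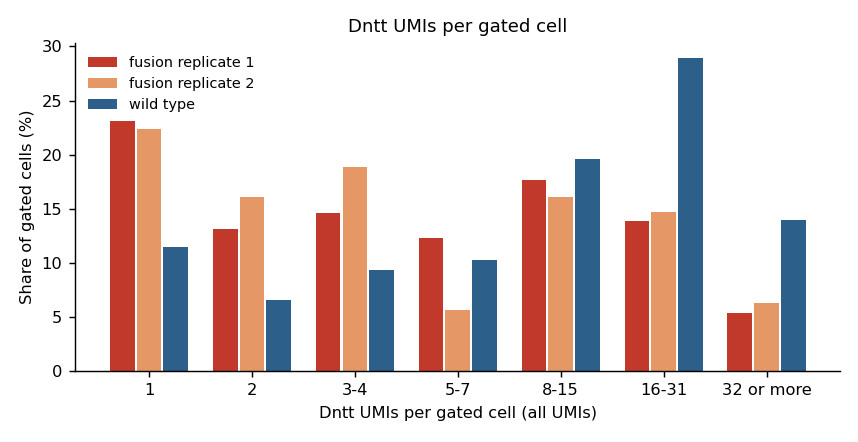
Share of gated cells (percent) in each class of Dntt UMIs per cell, by library, with no thinning. Wild-type cells are most frequent in the class from 16 to 31 UMIs and fusion cells in the class of 1 UMI.

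Flt3 cells without Dntt and cells with surrogate light chain were counted beside the gated cells. Flt3 Cd34 cells without a Dntt UMI were 4.26%, 4.84% and 5.74% of kept cells. The interval of fusion replicate 1 (3.81% to 4.74%) lay below that of wild type (5.23% to 6.29%). That of fusion replicate 2 (4.35% to 5.36%) overlapped the wild-type interval. At 2000 UMIs these cells were 0.782%, 0.807% and 0.776%, with intervals that overlapped. Dntt cells with at least 3 UMIs of Cd79a, Vpreb1 and Igll1 were few, 21, 33 and 66 cells, or 0.279%, 0.458% and 0.866%. Both fusion libraries were below wild type in these later cells too. The difference between the cell sets in share was not tested.

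Fewer of the gated fusion cells had a transcript of Il7r, which the gate did not use. At 2000 UMIs, Il7r was detected in 5.43% of gated cells of fusion replicate 1, 6.99% of fusion replicate 2 and 19.2% of wild type. The fusion mean was 6.21% ± 1.11 (SD, n = 2), 0.324 times the wild-type value, with p = 0.333 in the exact permutation test. In erythroid cells and neutrophils the same share was 0% to 0.701%, so the gated shares stood above background in every library. With all UMIs the shares were 13.8%, 16.8% and 40.8%.

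Il7r was more frequent in gated cells with more Dntt, in all 3 libraries. Among cells with 1 or 2 Dntt UMIs, Il7r was detected at 2000 UMIs in 0 of 46, 0 of 55 and 4 of 77 cells. Among those with at least 8 it was detected in 7 of 48 (14.6%), 8 of 53 (15.1%) and 73 of 268 (27.2%). The intervals of the fusion libraries, which ran from 6.07% to 27.8% and from 6.75% to 27.6%, overlapped that of wild type (22% to 33.0%). Among cells with high Dntt the ratio of fusion to wild type was thus 0.545, in place of 0.324 for all gated cells, and both fusion libraries lay below wild type. Mpo ran the other way, in 65.2%, 69.1% and 79.2% of cells with 1 or 2 Dntt UMIs and 47.9%, 45.3% and 42.2% of those with at least 8.

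**Figure D3:**
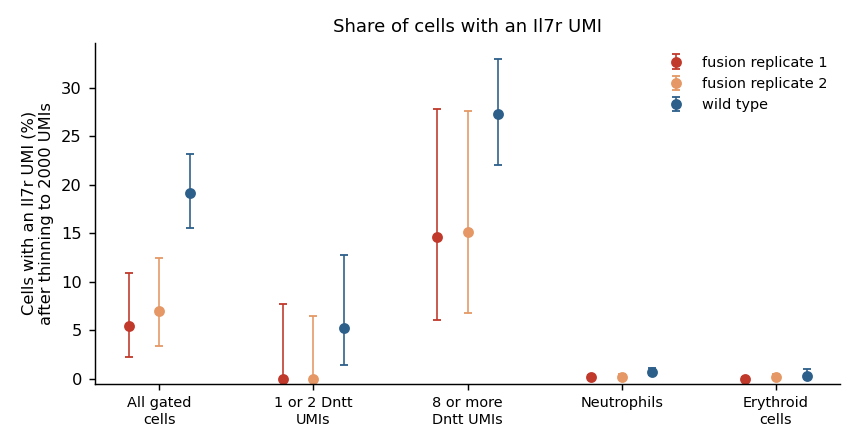
Share of cells with an Il7r UMI after thinning to 2000 UMIs (percent), for all gated cells, for gated cells with few or many Dntt UMIs, and for neutrophils and erythroid cells as background; points are libraries and bars exact 95% intervals. Wild type is highest among all gated cells (19.2% against 5.43% and 6.99%), while intervals overlap within the classes of Dntt.

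Counts were then summed over the gated cells of each library and tested gene by gene. Of 10231 genes tested (the 8 gate genes were not), 3 were lower in fusion cells (0.0293%) and 0 higher at an adjusted p under 0.05 with edgeR's quasi-likelihood test, while 609 had an unadjusted p under 0.05. DESeq2 called 1 gene, with 106 at an unadjusted p under 0.05. The count moved with the cells and settings used. With no gene filter it was 216 on the same cells. With the predicted doublets removed, a choice planned among the alternatives, 129 genes were lower (1.27%) and 30 higher (0.296%), and without the cells over 1% of other-lineage UMIs 89 were lower (0.879%) and 23 higher (0.227%). Among cells with at least 8 Dntt UMIs, 44 were lower (0.532%) and 14 higher (0.169%). The spread shared between genes carried a weight of 7.0 prior degrees of freedom with all gated cells and 60.6 without predicted doublets, beside 1 residual degree of freedom. The fit of all gated cells is the main one.

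The 3 genes called with all gated cells were Ms4a3, Prss34 and Tmem108, named here after their values were seen. Ms4a3, a membrane protein of granulocyte and monocyte progenitors, stood at 4.86 and 5.02 CPM (counts scaled to a common library size) in the fusion cells and 46.5 in wild type (log2 fold change -3.22, SE 0.271, adjusted p = 0.0234). Yet only 40 of 429 wild-type cells had an Ms4a3 UMI, and 5 of them held 81.0% of its UMIs. At 2000 UMIs its share of gated cells, 1.55%, 0.699% and 1.87%, was near that of erythroid cells (0.752%, 0.909% and 1.5%). Prss34, a mast cell and basophil protease, stood at 6.08, 5.48 and 37.4 CPM (log2 fold change -2.69, SE 0.276, adjusted p = 0.0488), and 1 wild-type cell held 127 of its 216 UMIs. Without predicted doublets its adjusted p was 0.762. Ms4a3 passed without predicted doublets (log2 fold change -4.09) and without the cells over 1% of other-lineage UMIs (-4.0). Most wild-type UMIs of both genes thus lay in a few cells, and the part of these cells was tested only by those alternatives.

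Tmem108, a transmembrane protein gene at chromosome 9, bases 103482947 to 103761837 (GRCm38), was different. It stood at 6.68 and 9.13 CPM in the fusion cells and 43.8 in wild type (log2 fold change -2.44, SE 0.261, adjusted p = 0.0488). A Tmem108 UMI was found in 5.38%, 8.39% and 25.2% of gated cells, and the 5 highest wild-type cells held 14.6% of its UMIs. The UMIs were spread over many cells. The log2 fold change was -2.50 without predicted doublets, -1.87 among cells with at least 8 Dntt UMIs and -1.33 among cells without an Il7r UMI, where it did not pass (adjusted p = 0.570). DESeq2 did not call it either (adjusted p = 0.573).

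The other genes given for the size of their difference did not pass in the main test, with adjusted p between 0.0501 and 0.191. Genes with a mean of at least 20 CPM and both fusion libraries well apart from wild type numbered 19 lower and 5 higher, of which the 12 lower ones with the largest log2 fold change and all 5 higher ones are given. Without predicted doublets, 16 of these 17 passed. The exception was Mcpt8, a basophil protease at 21.9, 16.4 and 64.9 CPM. For Mcpt8, 1 wild-type cell held 254 of 375 UMIs, and the log2 fold change went from -1.78 to 0.07. The 17 were chosen for size in these same libraries, and that test kept 130, 136 and 410 of the 130, 143 and 429 gated cells. Their passing there is thus a description and no separate support. With either DESeq2 setting 0 of the 17 passed.

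Of the 12 lower genes, Il7r is on the lymphoid priming list. Il7r, at chromosome 15, bases 9505788 to 9530176, stood at 32.2 and 39.7 CPM in the fusion cells and 106 in wild type (log2 fold change -1.55, SE 0.193, adjusted p = 0.0501; 5.45e-07 without predicted doublets). Arpp21, a cyclic AMP-regulated phosphoprotein gene also active in early lymphoid precursors, stood at 24.9, 33.8 and 96.7 CPM and was found in 13.8%, 19.6% and 48.7% of cells. Myl10, a myosin light chain of lymphoid precursors, stood at 14.6, 19.2 and 58.6 CPM. That both fusion libraries lay below wild type was a condition of the choice of these 3 genes, and held for 32.2% of all genes tested. Each of the 3 fell in the test without predicted doublets. Lck, a kinase of T cell receptor signalling, showed 14.6, 16 and 36.5 CPM.

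**Figure D4:**
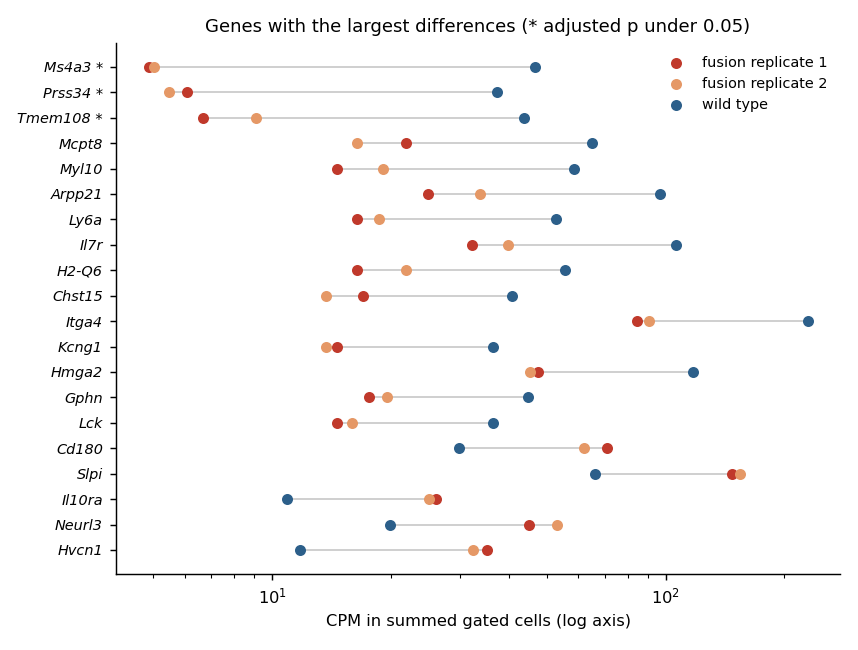
CPM in summed gated cells (log axis) for the 3 genes called with all gated cells (asterisks) and the 17 given for size, by library. For the 17, fusion libraries close together and apart from wild type were a condition of the choice. Il7r, for example, stands at 32.2 and 39.7 against 106 CPM.

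Hmga2 and Ly6a, on the stem cell and multipotent list, and Itga4, on the homing and adhesion list, were also among the 12. Itga4, the alpha chain of the integrin that binds VCAM1 in marrow, stood at 84.5 and 90.8 CPM in the fusion cells and 229 in wild type (log2 fold change -1.38, SE 0.183, adjusted p = 0.0573), and was found in 57.7%, 60.8% and 82.8% of cells. Hmga2, a chromatin protein of self-renewing progenitors, stood at 47.4, 45.2 and 117 CPM, in 34.6%, 36.4% and 64.3% of cells. Ly6a, which encodes the stem cell antigen Sca-1, stood at 16.4, 18.7 and 52.8 CPM, in 10.0%, 16.1% and 35.4% of cells. All 3 were spread over many wild-type cells, of which the 5 highest held at most 11.8% of the UMIs. At 2000 UMIs Ly6a was found in 3.88%, 4.20% and 11% of gated cells, against at most 0.841% of erythroid cells and neutrophils. H2-Q6, a class Ib MHC gene whose reads near-identical neighbours can share, is uncertain at 16.4, 21.9 and 55.5 CPM. Chst15, Kcng1 and Gphn made up the rest of the lower group.

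The 5 higher genes include genes known from B cells and phagocytes. Cd180, a Toll-like receptor homologue of B cells, stood at 71.1 and 62.1 CPM in the fusion cells and 29.9 in wild type (log2 fold change 1.15, SE 0.197, adjusted p = 0.121), and was found in 56.9%, 59.4% and 29.8% of cells. Hvcn1, a proton channel of B cells and phagocytes, stood at 35.2, 32.4 and 11.8 CPM. Il10ra, the interleukin 10 receptor, stood at 26.1, 25.1 and 10.9. Slpi, a secreted protease inhibitor, was at 147, 154 and 66.2 CPM, and Neurl3, a ubiquitin ligase gene, at 45.0, 52.9 and 19.9. All 5 rose in the test without predicted doublets, and each was detected in a larger share of cells in both fusion libraries than in wild type. That both fusion libraries lay above wild type was a condition of the choice of these 5 genes, and held for 30.9% of all genes tested.

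Within the cells richest in Dntt the differences in Il7r, Arpp21 and Myl10 were smaller, and those in Itga4 and Hmga2 about as large. Among cells with at least 8 Dntt UMIs the log2 fold change was -0.99 for Il7r (adjusted p = 0.0231), -0.96 for Arpp21 (0.0334) and -1.05 for Myl10 (0.0214). It was -0.42 for Ly6d (adjusted p = 0.946) and -1.19 for Rag2 (0.200), which did not pass. Itga4 (-1.29, adjusted p = 0.00212) and Hmga2 (-1.50, 1.72e-04) fell, while Hvcn1 (1.61, 0.0233) and Cd180 (1.12, 0.0170) rose.

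Among 20 tested of 23 lymphoid priming genes, 9 were lower and 0 higher at an unadjusted p under 0.05. Of all genes, 4.24% were lower and 1.71% higher, the background for the counts of every list with all gated cells. The list median was a log2 fold change of -0.40, and the median of all genes 0.00. Without predicted doublets 5 members fell, beside 1.27% of all genes: Il7r, Rag2, Ccr9, Ly6d and Il12a. Rag2 stood at 4.25, 7.76 and 21.8 CPM. It was found at 2000 UMIs in 1 of 129, 0 of 143 and 25 of 428 gated cells and in 0 erythroid cells. Ly6d, an early sign of B-lineage specification, stood at 38.9, 51.6 and 110 CPM and was found in 4.62%, 9.09% and 19.6% of cells. Ccr9, a receptor for homing to the thymus, stood at 6.68, 6.84 and 21.1. The transcription factors of the list differed less: Satb1 stood at 312, 278 and 353 CPM, Ikzf1 at 224, 215 and 235, Tcf3 at 78.4, 81.7 and 73.0 and Mef2c at 770, 772 and 904. Of the named members, those that fell were receptor, cytokine, recombination and surface genes, and none of these 4 factors passed.

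Of 10 tested early B cell genes, 4 were lower and 0 higher at an unadjusted p under 0.05 (4.24% and 1.71% of all genes), and the median was -0.47. Ebf1 stood at 1.22 CPM in fusion replicate 1, 14.1 in fusion replicate 2 and 37.0 in wild type, and was found in 2 of 130, 11 of 143 and 58 of 429 cells. The fusion libraries disagreed in size but not in side for Ebf1. Cd79b, a signalling chain of the B cell receptor, stood at 49.8, 39.2 and 36.5 CPM. Of 13 T cell and innate lymphoid genes, 4 were lower and 2 higher, and the higher ones were Tcf7 and Itgb7. Tcf7 rested on 1, 3 and 10 cells with a UMI. Itgb7, an integrin chain that pairs with Itga4, stood at 60.1, 47.5 and 28.2 CPM, opposite to Itga4 itself.

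**Figure D5:**
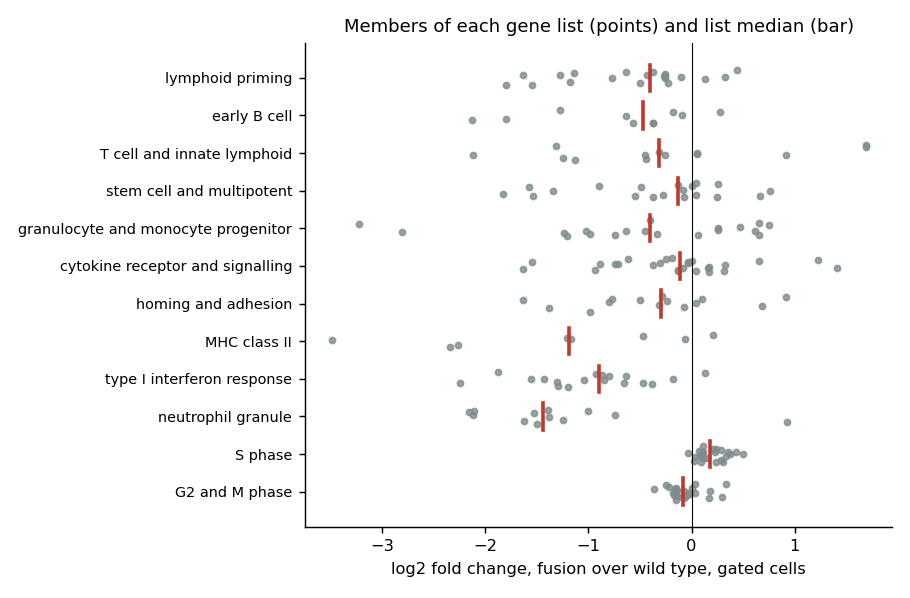
Log2 fold changes (fusion over wild type) of the tested members of 12 gene lists in gated cells; points are genes and red bars list medians. Interferon response genes centre on -0.89, lymphoid priming genes on -0.40, S phase genes on 0.18 and G2 and M phase genes on -0.08.

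Genes of the type I interferon response are switched on by interferon signals during infection and at a low level in resting marrow. Of 18 tested members, 13 were lower and 0 higher at an unadjusted p under 0.05 (4.24% and 1.71% of all genes), and the median was -0.89. Irf7, a factor that amplifies the response, stood at 2.43, 5.48 and 19.7 CPM and was found in 3.08%, 6.99% and 18.4% of cells. Without predicted doublets 6 members fell (1.27% of all genes): Isg15, Irf7, Oasl2, Usp18, Rtp4 and Trim30a, and the same 6 did so without the cells over 1% of other-lineage UMIs. Rtp4, a chaperone of surface receptors, stood at 7.90, 16.9 and 34.8 CPM, and Isg15, a ubiquitin-like protein, at 20, 13.7 and 34.1. Bst2, a tether of budding viruses, differed from them at 235, 196 and 197. At 2000 UMIs Irf7 was found in 0.775%, 2.80% and 5.14% of gated cells, in 0.967%, 1.44% and 1.97% of erythroid cells and in 3.93%, 4.17% and 7.31% of neutrophils. All 3 gated shares lay below those of neutrophils, and that of fusion replicate 1 below that of erythroid cells as well. These values do not separate free RNA from transcripts of the cells themselves, and the part of free RNA was not tested.

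Myeloid genes differed in both directions. Of 19 granulocyte and monocyte progenitor genes, 7 were lower and 3 higher at an unadjusted p under 0.05 (4.24% and 1.71% of all genes). Ctsg, the cathepsin G of granule precursors, stood at 509, 404 and 271 CPM and was detected in 63.8%, 61.5% and 43.4% of cells. Csf1r, the receptor for macrophage growth factor, stood at 52.9, 48.4 and 32 CPM, and Cebpa, a factor of granulocyte fate, at 35.8, 27.4 and 20.4. Elane, neutrophil elastase, went the other way at 21.3, 51.1 and 260 CPM, but the 5 highest wild-type cells held 83.1% of its 1506 UMIs. At 2000 UMIs its share of gated cells was 2.33%, 2.80% and 8.41%, of erythroid cells 2.42%, 2.99% and 5.90%, and of neutrophils 13.8%, 12.3% and 20.1%, so the fusion shares were at background. Mpo stood at 682, 611 and 886 CPM (adjusted p = 0.932) and Prtn3 at 416, 504 and 581. Ctsg rose in the test without predicted doublets, in which Elane and Ms4a3 fell. The wild-type UMIs of Elane and Ms4a3 were concentrated in a few cells.

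Stem cell genes differed in both directions. Of 19 tested stem cell and multipotent genes, 6 were lower and 2 higher at an unadjusted p under 0.05 (4.24% and 1.71% of all genes), and the median was -0.14. Hlf, a transcription factor of stem cells, stood at 50.4, 47.9 and 29.1 CPM, and Gata2, another, at 27.3, 26 and 16.8, so both lay opposite to Ly6a and Hmga2. Neither passed with adjustment (0.326 and 0.667). Of 14 homing and adhesion genes, 5 were lower and 1 higher, and Cd44, a receptor for hyaluronan, stood at 118, 106 and 194 CPM and fell without predicted doublets. Of 10 Hox genes and cofactors, 0 were lower and 1 higher, with a median of -0.12. Of 10 dendritic cell genes, 4 were lower and 0 higher, namely Ly6d, Cox6a2, Ccr9 and Irf7, of which lymphoid and interferon lists hold 3. Tcf4, a factor of plasmacytoid cells, stood at 419, 501 and 340 CPM (adjusted p = 0.954).

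Neutrophil granule and MHC class II genes moved with a few cells. The 12 neutrophil granule genes summed to 1158, 5341 and 8799 CPM, with 0 members at 0, and their median log2 fold change was -1.44. S100a8 stood at 287, 1720 and 3096 CPM. Without predicted doublets 8 of them fell (median -1.16), but without the cells over 1% of other-lineage UMIs 0 of 11 tested passed and the median was 0.15. Those cells, 1, 5 and 22 in number, were chosen by UMIs of lists that include the neutrophil granule and MHC class II genes. Leaving them out thus lowers mainly the wild-type values of these genes by construction, and the values without them are a description. For MHC class II the median was -1.19 with 5 of 8 tested members lower at an unadjusted p under 0.05 (4.24% of all genes) and -0.61 without those cells. Cd74, its invariant chain, stood at 7.90, 5.93 and 34.6 CPM, with 130 of 200 wild-type UMIs in 1 cell. H2-Ob, a modulator of peptide loading, stood at 40.1, 38.3 and 90.5 CPM (adjusted p = 0.0891), and fell both without predicted doublets (4.75e-05) and without the other-lineage cells (0.00114).

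Median differences of the cell cycle lists were small, above that of all genes for S phase and below it for G2 and M phase. Of 24 S phase genes, 23 had a positive log2 fold change, while 5098 of all 10231 genes tested had a negative one. Both fusion libraries lay above wild type for 16 of the 24 and below for 0, beside 30.9% and 32.2% of all genes. The S phase median was 0.18, with 1 member higher at an unadjusted p under 0.05. With equal cells per library, 130 gated cells each drawn at random once, the median was 0.35. In that fit 8 of 24 were higher, with 0 past the adjusted threshold. Of all genes, 754 of 9832 had an unadjusted p under 0.05 in either direction there, and 609 of 10231 with all gated cells. Of 24 genes of G2 and M phase, 0 had an unadjusted p under 0.05, and the median was -0.08. Mki67, a protein of dividing cells, was detected at 2000 UMIs in 30.2%, 32.9% and 28.3% of gated cells. Of 18 immediate early genes, which respond to handling as well as to signals, 5 were lower and 1 higher at an unadjusted p under 0.05 (4.24% and 1.71% of all genes). Without predicted doublets Fos, Fosb, Atf3, Klf2 and Klf4 fell and Ier3 rose. Fos stood at 232, 160 and 434 CPM and Fosb at 24.3, 13.7 and 57.8, Egr1 stood at 41.9, 34.7 and 35.3 and Ier3 at 72.9, 91.7 and 48.6. Their part in the other differences was not tested.

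The genes named in the fusion did not pass the test in these cells. Ep300, at chromosome 15, bases 81585351 to 81652077, stood at 66.8, 58.9 and 84.1 CPM (log2 fold change -0.42, SE 0.183, adjusted p = 0.833). Zfp384, the mouse symbol of Znf384, stood at 31.6, 20.5 and 17.6 CPM (log2 fold change 0.53, SE 0.286, adjusted p = 0.965). Crebbp, the paralogue of Ep300, stood at 117, 115 and 125. The counts do not tell fusion transcripts from normal ones, so they do not check the labels. Ly6a and Ly6d lie 6.59 and 6.82 megabases from Ep300 on chromosome 15 and Il7r 72.1.

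ZNF384 is known to bind runs of A, so the promoter of Il7r, the gene on which much of the comparison turns, is shown with such runs marked. It is from RefSeq on GRCm38.p6, chr15:9529827-9530126, minus strand, from 250 bases before to 50 after the start. Capitals mark runs of at least 6 A or T, which is AAAAAA on either strand.
Il7r: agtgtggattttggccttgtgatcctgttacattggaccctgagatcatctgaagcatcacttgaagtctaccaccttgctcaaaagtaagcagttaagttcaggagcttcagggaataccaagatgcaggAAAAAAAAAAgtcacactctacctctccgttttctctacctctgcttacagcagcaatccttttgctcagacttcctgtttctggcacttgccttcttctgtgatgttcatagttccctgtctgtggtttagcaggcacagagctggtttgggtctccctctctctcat
It holds 1 such run. The window lies within the bounds of Il7r given above, which come from another annotation, so its start is not the outermost one there. A run was found in 19.2% of all 32851 promoters of the table. Counted per gene, where any promoter of the gene may hold it, it was found for 16.7% of tested genes with an entry (1359 of 8160). It was found for 3 of 10 lower genes given for size, 2 of 3 higher ones and 2 of the 3 genes called lower. The 3 lower genes were Il7r, Arpp21 and Myl10, while Itga4, Hmga2 and Lck had 0 runs. Among the called genes, Tmem108 had 0. A match is a description of letters only.

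The genotype difference in gated cells was set against that in Flt3 Cd34 cells without Dntt in 1 model. Of 11731 genes, 155 had a lower log2 difference in gated cells (1.32%) and 78 a higher one (0.665%) at an adjusted p under 0.05. Itga4 was among them (log2 difference -1.11, SE 0.144), and it stood at 90.3 and 86.7 CPM in fusion and 106 in wild type in the cells without Dntt. Hmga2 (-1.18), Chst15 (-1.67), Gphn (-1.64), H2-Ob (-2.31) and Ly6a (-1.12) also had a lower log2 difference in gated cells. Such a difference can come from either cell set. For MHC class II genes, a list with H2-Ob, the median log2 fold change was -1.19 in gated cells and 0.79 in cells without Dntt. In wild type, Hmga2 and Itga4 were higher in the gated cells than in those without Dntt (114 and 224 against 28.6 and 106 CPM), whereas in fusion libraries Itga4 stood at 82.3 and 88.7 in gated cells, close to its level in cells without Dntt. Hmga2 stood at 46.2 and 44.1 CPM in gated fusion cells and at 26.9 and 24.6 in fusion cells without Dntt, so it was higher in gated cells in every library. All 12 neutrophil granule genes were lower here as well, with the other-lineage cells described above left in.

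Set against the Dntt cells with surrogate light chain, the genotype difference was lower in the gated cells for 4 of 21 lymphoid priming genes, beside 1 of 21 against the cells without Dntt. Of 9757 genes, 28 had a lower difference in gated cells (0.287%) and 25 a higher one (0.256%). Il7r stood at 167 and 305 CPM in the fusion cells with light chain and 234 in wild type, and the log2 difference of the 2 genotype effects was -1.58 (SE 0.343, adjusted p = 0.00153). Ly6d (-2.89), Rag2 (-2.67), Ebf1 (-2.26), Myl10 (-2.75) and Arpp21 (-1.77) were also lower, and Ly6d stood at 803, 902 and 279 CPM in the light chain cells, with both fusion libraries above wild type. Hvcn1 (3.51) and Slpi (2.23) were higher. Both sets come from the same libraries, the later one has 21 to 66 cells, and the model has 1 residual degree of freedom. Prior degrees of freedom were infinite in this model and 2448 in the model with cells without Dntt. The p-values of both models thus rest almost wholly on a spread shared between genes.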

How the data were processed

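Droplet single-cell RNA sequencing (10x Genomics 3') of 3 libraries was analysed, 2 labelled Ep300-Znf384-V5-HA and 1 wild type. The authors deposited raw UMI counts per gene and barcode; the submitters' processing notes name Cell Ranger 5.0.1, bcl2fastq 2.20.0.422 and the build GRCm38; the file headers name Cell Ranger 5.0.0. Cells were chosen by the gate on raw UMIs, and doublets were kept in the main analysis (scrublet in scanpy 1.11.5, expected rate 0.06, marked them for an alternative). The cells, gene lists and tests were chosen with earlier results of these data known, so no count is independent evidence.

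Counts were summed per library and tested with edgeR 4.0.16 (quasi-likelihood, TMM, filterByExpr with minimum count 10, genotype as the only term, Benjamini-Hochberg adjustment over all genes tested). Log2 fold changes put the fusion mean over wild type. CPM of tested genes use TMM effective library sizes. With 2 libraries against 1 there is 1 residual degree of freedom, and wild type was assumed to vary like the fusion libraries; the p-values rest on differences between libraries that may be technical only. Differences between cell sets were tested in 1 model with library, cell set and their genotype term. On counts simulated for the main test, over 10169 genes, 10 of 104 genes changed by 1 on the log2 scale and 92 of 96 changed by 2 were recovered, with 1 unchanged gene called. The simulation gave every gene the same spread and changed only genes of at least 20 CPM. It did not model genes whose UMIs lie in a few cells, so its recovery may not hold for the real counts. Thinning to 2000 UMIs left out 1 gated cell in fusion replicate 1 and 1 in wild type. Shares have exact Clopper-Pearson 95% intervals. Genes named are those called with a mean of at least 20 CPM, free places going to the largest differences with both fusion libraries at least 1 from wild type on the log2 scale and 3 times as far as from each other (12 per direction), up to 4 members per list and the first 5 called in each test between cell sets. No gene passed the first part. Gene positions are from GENCODE M21. Alternatives used DESeq2 1.42.0, other gates, thinning and left-out libraries.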

Additional observations from a re-analysis of the deposited data

Results flagged for a closer look

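The largest differences in genotype effect between gated cells and Flt3 Cd34 cells without Dntt, as log2 differences from edgeR, were -7.80 for Vpreb3, -6.20 for H2-Eb1, -6.08 for Prss34, -5.44 for Stfa2l1 and -5.03 for H2-Aa; each was listed because the test of the difference passed. Their counts are low or held by few cells: Vpreb3 had 0, 0 and 24 UMIs in gated cells of fusion replicates 1 and 2 and wild type, and 6, 7 and 7 in the other cells, so its fitted value is no bound. Without predicted doublets Stfa2l1 was at -1.0 (adjusted p = 0.921) and Prss34 at -2.98. Prss34 had 491, 257 and 51 UMIs in the cells without Dntt, the opposite order to the gated cells (10, 12 and 216).

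Against Dntt cells with surrogate light chain the first 5 were Tcf7 (10.2), Tnfrsf1a (8.70), Ptger4 (8.34), Angpt1 (8.21) and Vpreb3 (-5.67), listed for the same reason. Tcf7, Tnfrsf1a, Ptger4 and Angpt1 had 0 UMIs in both fusion libraries of the light chain cells and 13, 15, 21 and 15 in wild type, so these fitted values are no bounds either.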

How the results depend on the processing

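No paired analysis was possible because there is 1 wild-type library. The ratio of fusion to wild-type shares of gated cells stayed below 1 in all alternatives run, from 0.195 (at least 8 Dntt UMIs) to 0.592 (of Flt3 Cd34 cells), both chosen after seeing the data, and was 0.307 to 0.352 with 1 fusion library left out. For the share with Il7r the ratio ran from 0.304 to 0.545, and 0.283 to 0.365 with 1 fusion library left out.

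The count of genes called, 3 with all gated cells, was 0 with DESeq2 size factors, 216 with no gene filter, 159 without predicted doublets, 66 with at least 2 Dntt UMIs, 134 with Cd79a, Vpreb1 and Igll1 all at 0, 93 with equal cells per library, 27 with cells thinned to 2000 UMIs and 1 with DESeq2. In alternatives chosen after seeing the data it was 58 with at least 8 Dntt UMIs, 42 in cells without an Il7r UMI and 112 without cells over 1% of other-lineage UMIs; the cause was not tested beyond the values given. With size factors, 581 genes had an unadjusted p under 0.05. Of the 17 genes given for size, 10 to 17 passed in 8 of these alternatives, 5 when thinned and 0 with either DESeq2 setting. The 17 were chosen for size in the same libraries, so these counts are a description. Ltf turned from -2.11 to 2.63 with equal cells. Both tests between cell sets kept their counts within 1.5 times (233 against 207 and 191, and 53 against 68 and 48). With 1 fusion library against wild type no test was made.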
